A study of Mus musculus with 6 samples.

Results

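Tjp3, Ocln, Cldn3 and Marveld3 encode proteins of the tight junction, the seal between neighbouring epithelial cells just below their apical surface. All 4 were followed here as normalized read counts in colon tissue of Gab1-deficient mice and their controls during dextran sulfate sodium (DSS) colitis. The genes were chosen by name, and they are 4 of the 2195 genes in the deposited table of the comparison. The table holds only genes that passed an unadjusted p of 0.05 when the authors compared the same libraries, so the presence of the 4 genes in it already depended on a difference between the groups, and the tests given here are not independent of that.

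Gab1 is an adaptor protein that couples growth factor and cytokine receptors to their signalling cascades. Gab1IEC-KO mice (labelled KO) carry a floxed Gab1 and a Cre recombinase driven by the Villin promoter, which is active in intestinal epithelial cells, so that Gab1 is deleted in the epithelium and not in the stroma or the immune cells. Their controls were Gab1fl/fl littermates (labelled WT), which carry the floxed allele without Cre. All mice were 8 to 10 weeks old and drank 3% DSS, a polymer that injures the colonic epithelium, for 7 days before RNA was taken from flushed colons, with 3 libraries in each group. No library from untreated mice was among those analysed, so the values describe colitis only. The RNA came from whole colon tissue, and Gab1 itself is not among the listed genes, so the deletion was not checked in these values.

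Tight junctions are built from membrane proteins whose loops meet those of the adjacent cell, and from cytoplasmic scaffolds that tie them to actin. Claudins form the strands and set which ions pass, and Cldn3 (claudin-3) is a claudin of the sealing kind that is abundant in the colon. Ocln (occludin) and Marveld3 belong, with tricellulin, to a family of junction proteins that share the MARVEL membrane domain. Tjp3 encodes ZO-3, a scaffold of the zonula occludens family that binds the tails of claudins and occludin. Loss of tight junction proteins from the cell border is a known feature of colitis.

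The 4 genes lie on different chromosomes of the mouse genome (build GRCm38). Tjp3 (ENSMUSG00000034917) is on the minus strand of chromosome 10 from 81273207 to 81291581, and Ocln (ENSMUSG00000021638) on the minus strand of chromosome 13 from 100496507 to 100552718. Cldn3 (ENSMUSG00000070473), a gene of a single exon, is on the plus strand of chromosome 5 from 134986214 to 134987472. Marveld3 (ENSMUSG00000001672) is on the minus strand of chromosome 8 from 109947914 to 109962203. Tjp3 overlaps Apba3 and Cldn3 overlaps the antisense gene Wbscr25, each by 40 bases on the opposite strand. Neither neighbour is listed, and the sources used here do not say whether reads were counted by strand.

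Because the 4 genes were lower together, their promoters are shown to let the sequences upstream of each start be compared. The RefSeq windows (GRCm38.p6, 250 bases before to 50 after the start) matched 3 of the 4 genes, Tjp3, Ocln and Cldn3. The 250 bases before each start follow, 5′ to 3′ on the strand of the gene, and capitals mark every match to a searched motif. They are chr10:81291582-81291831 for Tjp3, chr13:100552719-100552968 for Ocln (both minus strand) and chr5:134985964-134986213 for Cldn3 (plus strand).
Tjp3 promoter: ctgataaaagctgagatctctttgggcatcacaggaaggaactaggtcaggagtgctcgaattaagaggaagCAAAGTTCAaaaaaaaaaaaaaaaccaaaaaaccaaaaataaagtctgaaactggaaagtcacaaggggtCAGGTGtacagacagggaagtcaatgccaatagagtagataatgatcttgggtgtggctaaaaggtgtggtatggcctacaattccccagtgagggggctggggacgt
Ocln promoter: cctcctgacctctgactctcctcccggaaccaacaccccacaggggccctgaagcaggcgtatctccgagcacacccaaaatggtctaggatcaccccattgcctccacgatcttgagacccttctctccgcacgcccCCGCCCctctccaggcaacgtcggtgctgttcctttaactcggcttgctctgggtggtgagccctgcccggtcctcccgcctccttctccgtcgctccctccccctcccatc
Cldn3 promoter: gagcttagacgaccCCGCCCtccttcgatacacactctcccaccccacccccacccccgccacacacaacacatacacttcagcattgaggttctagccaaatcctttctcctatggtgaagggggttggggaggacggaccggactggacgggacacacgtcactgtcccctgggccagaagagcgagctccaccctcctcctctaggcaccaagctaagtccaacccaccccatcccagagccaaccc

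An E-box with the letters CACCTG, the sequence that repressors of the Snail and Zeb families recognise, was searched on both strands and was found in all 3 windows, as CAGGTG on the strand of the gene. In Tjp3 it begins 108 bases before the start. In Ocln and Cldn3 it begins at bases 8 and 32 counted from the start, and these sites are shown with 7 bases on each side (chr13:100552699-100552718 for Ocln and chr5:134986238-134986257 for Cldn3).
Ocln E-box: ggagtttCAGGTGaatgggt
Cldn3 E-box: ccacaggCAGGTGcaggggc
The same letters occur in 20.2% of 32851 promoter windows of the same length. The letters GGGCGG, bound by Sp factors, were found as CCGCCC in Ocln and Cldn3, 112 and 236 bases before the start, and in 35.7% of windows. The letters CAAAGTNCA, a form of the site of Hnf4 receptors, were found only in Tjp3 of these 3 windows, 178 bases before the start, and in 1.41% of all windows. No match was found for AACCGGTT (Grhl factors, in 0.146% of windows), TTTATNG (Cdx factors, 10.9%) or an NF-kB site (1.2%). No 2 of the matches shown overlap, and a match of letters is a description and not a binding site.

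All 4 genes had lower counts in every Gab1IEC-KO library than in any Gab1fl/fl library. The Gab1IEC-KO mean was between 66.0% and 74.2% of the Gab1fl/fl mean, and no gene passed an adjusted p of 0.05. In bulk tissue, fewer cells of a type and less RNA per cell cannot be told apart. Values for each mouse are given in the order of replicates 1, 2 and 3. They are normalized counts, that is reads divided by a size factor of the library, and 1 read was worth between 0.912 and 1.06 of them.

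Tjp3, the scaffold, stood at 5711, 5137 and 6107 in Gab1fl/fl and at 4264, 4192 and 4123 in Gab1IEC-KO. The Gab1IEC-KO libraries lay close together, with an SD of 1.69% of their mean against 8.63% in Gab1fl/fl, and the gap between the groups was 15.4% of the Gab1fl/fl mean, the widest of the 4 genes. The means were 5651 ± 488 and 4193 ± 70.7 (SD, n = 3 each). The log2 fold change was −0.43 (SE 0.16, 95% interval −0.81 to −0.05, adjusted p = 0.619 by limma).

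Cldn3, the claudin, stood at 9163, 7190 and 7799 in Gab1fl/fl and at 6672, 5380 and 4891 in Gab1IEC-KO. Gab1IEC-KO replicate 1 came nearest to the controls, and the gap to the lowest control was 6.43% of the Gab1fl/fl mean. The means were 8051 ± 1010 and 5648 ± 921 (SD, n = 3 each), a log2 fold change of −0.52 (SE 0.19, 95% interval −0.96 to −0.07, adjusted p = 0.605 by limma).

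Ocln stood at 1449, 1420 and 2180 in Gab1fl/fl and at 1303, 1087 and 1180 in Gab1IEC-KO. Here 1 control library was far above the other two, and the groups were separated by 117 normalized counts, or 6.97% of the Gab1fl/fl mean. The means were 1683 ± 430 and 1190 ± 108 (SD, n = 3 each). The log2 fold change of −0.47 (SE 0.24) had an interval that included 0 (−1.03 to 0.08, adjusted p = 0.787 by limma). Without Gab1fl/fl replicate 3 the log2 fold change was −0.27, and in that setting the 4 genes ranged from −0.54 for Cldn3 to −0.27 for Ocln.

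Marveld3, the other MARVEL protein, stood at 1642, 1504 and 2238 in Gab1fl/fl and at 1238, 1286 and 1026 in Gab1IEC-KO. The same control library was the highest, and the lowest control was 217.6 normalized counts above the highest Gab1IEC-KO library. The means were 1794 ± 390 and 1183 ± 138 (SD, n = 3 each). Its log2 fold change of −0.59 was the most negative of the 4 genes (SE 0.23, 95% interval −1.12 to −0.05, adjusted p = 0.633 by limma).

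**Figure D1:**
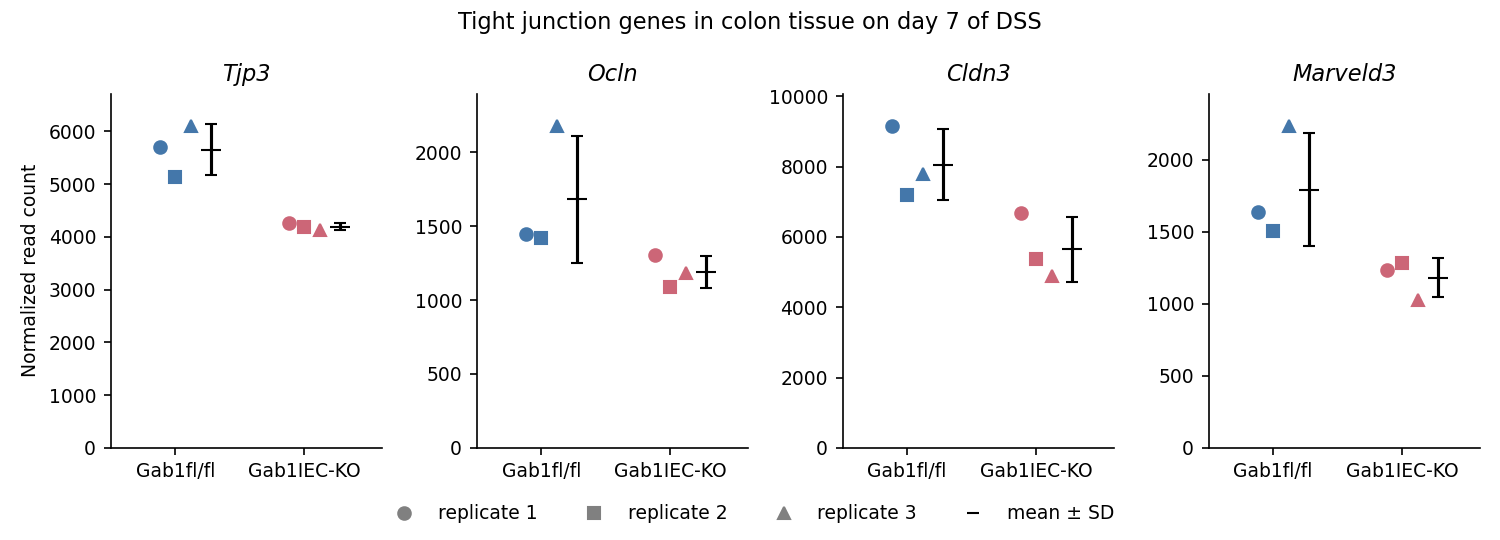
Normalized read counts of Tjp3, Ocln, Cldn3 and Marveld3 in each colon library (vertical axes from 0), with Gab1fl/fl in blue, Gab1IEC-KO in red, a symbol for each replicate and the mean ± SD in black. For each gene all 3 Gab1IEC-KO libraries sit below all 3 Gab1fl/fl libraries, most tightly for Tjp3 (4123 to 4264).

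In an exact permutation test over libraries each gene had a two-sided p of 0.1, the smallest that 3 against 3 can give. Groups that do not overlap were common in the table, and 19.3% of the 2195 listed genes were lower in Gab1IEC-KO without overlap. At an unadjusted p under 0.05 limma called 3 of the 4 genes, all but Ocln, against 14.9% of listed genes called and lower. Among only the listed genes that were lower, as all 4 were, 64.2% were without overlap and 49.8% passed the unadjusted threshold. Counts out of 4 genes are not shown to differ from those shares. After adjustment limma called 0% of listed genes, and 1207 passed the unadjusted threshold. Being listed was itself less common, since 12.2% of the 16716 genes that entered the authors' adjustment were listed and 3.53% were listed and lower.

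The 4 changes were small for this table. Their median log2 fold change was −0.50, while it was −0.91 over all listed genes that were lower and 0.79 over all listed genes. Only 30.0% of listed genes were lower. When the libraries were scaled on the listed genes alone, the median of all listed genes moved from 0.79 to 0.21 with TMM and to 0.13 with the median of ratios. The 4 genes then stood between −1.01 and −1.17 with TMM and between −1.09 and −1.24 with the median of ratios. Both scalings raised the values of every Gab1fl/fl library and lowered those of every Gab1IEC-KO library. Genes that were already lower could thus only become lower, and the unchanged direction of the 4 genes is no separate support. The size of their differences depended on what the rest of the library was scaled to.

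Sequencing gave ample reads for each gene. The lowest library held 4019 reads of Tjp3, 5267 of Cldn3, 1064 of Ocln and 1125 of Marveld3, and the exact Poisson interval for the last, 1060 to 1193 reads, covers counting error only. Per kilobase of gene model, Cldn3 had the highest level in Gab1fl/fl colons (6395 ± 803 normalized counts per kilobase), followed by Tjp3 (1522 ± 131), Marveld3 (546 ± 119) and Ocln (399 ± 102). The libraries of Marveld3 and Ocln overlapped in Gab1fl/fl and the other neighbours did not. The order was the same in Gab1IEC-KO colons, at 4486 ± 731, 1129 ± 19.0, 360 ± 42.1 and 282 ± 25.7 normalized counts per kilobase.

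The 4 genes varied together among mice only in part. Gab1fl/fl replicate 2 was the lowest control for all 4 genes. Gab1fl/fl replicate 3 was the highest control for 3 of them, while Cldn3 was highest in replicate 1. Among Gab1IEC-KO libraries, replicate 3 was the lowest for 3 genes, while Ocln was lowest in replicate 2.

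To see whether the genes kept their proportions, the log2 ratio of the counts of each pair was taken within each library, where size factors cancel. Ocln to Marveld3, the 2 MARVEL proteins, stood at −0.18, −0.08 and −0.04 in Gab1fl/fl and at 0.07, −0.24 and 0.20 in Gab1IEC-KO. Tjp3 to Cldn3, the scaffold to the claudin, stood at −0.68, −0.49 and −0.35 in Gab1fl/fl and at −0.65, −0.36 and −0.25 in Gab1IEC-KO. In both pairs the groups overlapped. The widest difference was for Tjp3 to Marveld3, whose mean log2 ratio was 1.67 ± 0.20 in Gab1fl/fl and 1.83 ± 0.16 in Gab1IEC-KO (SD, n = 3 each). Over the 6 pairs the groups overlapped in all, the means differed by 0.04 to 0.16, and exact two-sided permutation p-values were 0.5 to 0.9 (0.9 for each pair after Benjamini-Hochberg adjustment). With 3 libraries a group these tests cannot go below 0.1, so the ratios are not shown to be equal. Within a group the log2 ratios had SDs of 0.07 to 0.41. The difference of a pair follows from the log2 fold changes of its 2 genes, and all 4 genes were listed and lower. Small differences are therefore no separate evidence that the genes kept their proportions.

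**Figure D2:**
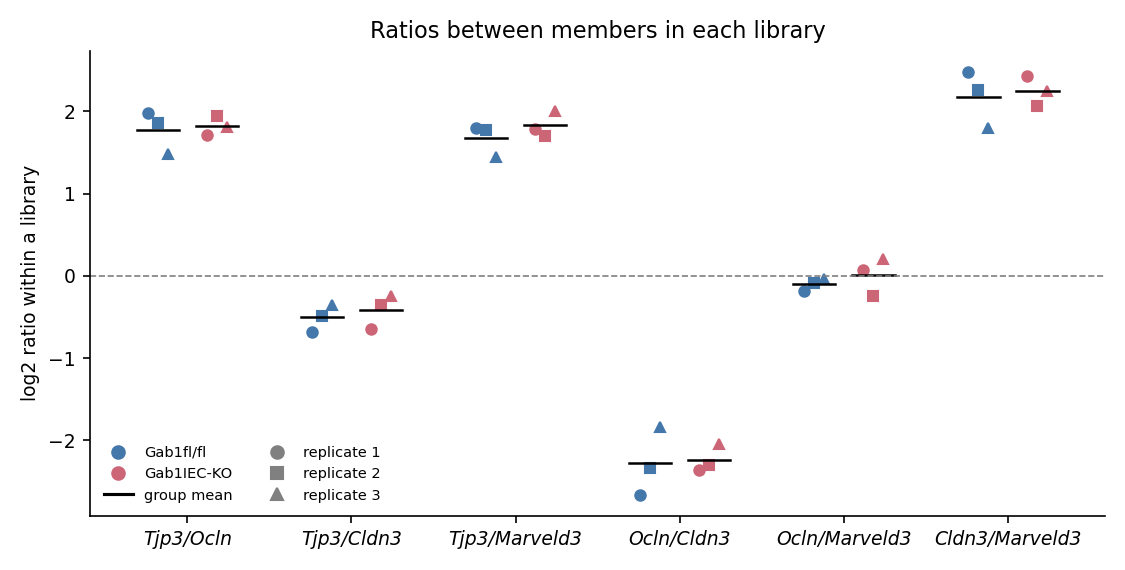
Log2 ratio of normalized counts of each pair of the 4 genes within a library (vertical axis), with Gab1fl/fl in blue, Gab1IEC-KO in red, a symbol for each replicate and a black bar at the group mean. The groups overlap in all 6 pairs, and their means lie between 0.04 and 0.16 apart.

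Other components of the tight junction were in the table less often than not. A list of 24 tight junction genes had 7 listed (29.2%), 6 of them lower, a share that includes the 4 genes. The 4 were chosen with earlier results of these data known. Beside the 4, the list held 20 others, of which 3 were listed (15.0%, near the 12.2% over all genes). Lsr and Magi3 were lower and Jam2 higher. None of the 3 passed the adjusted threshold. Lsr and Magi3 were without overlap and Lsr passed the unadjusted threshold, as did 64.2% and 49.8% of all listed genes that were lower. Lsr, which marks the corners where 3 cells meet, had the lowest log2 fold change of the list, with 679, 826 and 1287 normalized counts in Gab1fl/fl and 174.0, 519.9 and 519.9 in Gab1IEC-KO (log2 fold change −1.31, SE 0.47, adjusted p = 0.600 by limma). Magi3, a membrane-associated scaffold, had a log2 fold change of −0.36 (SE 0.19). Jam2, an adhesion molecule that endothelial cells also make, had 0.79 (SE 0.34), and its groups overlapped. The 17 genes that were not listed include Tjp1, which encodes the scaffold ZO-1, the claudins Cldn2, Cldn4 and Cldn7, and Marveld2 (tricellulin). Their counts were not analysed here, and a p over the authors' threshold does not show that they did not differ.

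Apical polarity and contractility genes, whose products position and tension the junction, were represented by 1 gene each. That is 10% and 8.33% of these lists, near the 12.2% listed over all genes. Llgl2, a polarity gene, had a log2 fold change of −0.42 (SE 0.21) and was 1 of 10 polarity genes listed. Shroom3, which drives contraction of the apical surface, had −0.54 (SE 0.19) and was 1 of 12. No adherens junction or desmosome gene was listed, of 16 that include Cdh1 (E-cadherin).

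Of 18 transcription factors known to control junction genes or epithelial identity, 8 were listed (44.4%, against 12.2% over all genes). Grhl2 and Klf5, which act in epithelial cells, had log2 fold changes of −0.68 and −0.64, and the groups overlapped for both. Snai1, Snai2, Zeb1, Zeb2 and Twist1, which repress junction genes when expressed in epithelial cells and are also made by stromal cells, had 1.37, 1.51, 0.71, 0.57 and 1.12. Only Snai1 and Snai2 had groups without overlap among these 5, and 43.0% of all listed genes were higher without overlap. Snai2, the factor with the largest difference, stood at 91.3, 58.0 and 48.8 normalized counts in Gab1fl/fl and at 243.0, 142 and 179.7 in Gab1IEC-KO (SE 0.38, adjusted p = 0.429 by limma). None of the 8 passed the adjusted threshold.

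**Figure D3:**
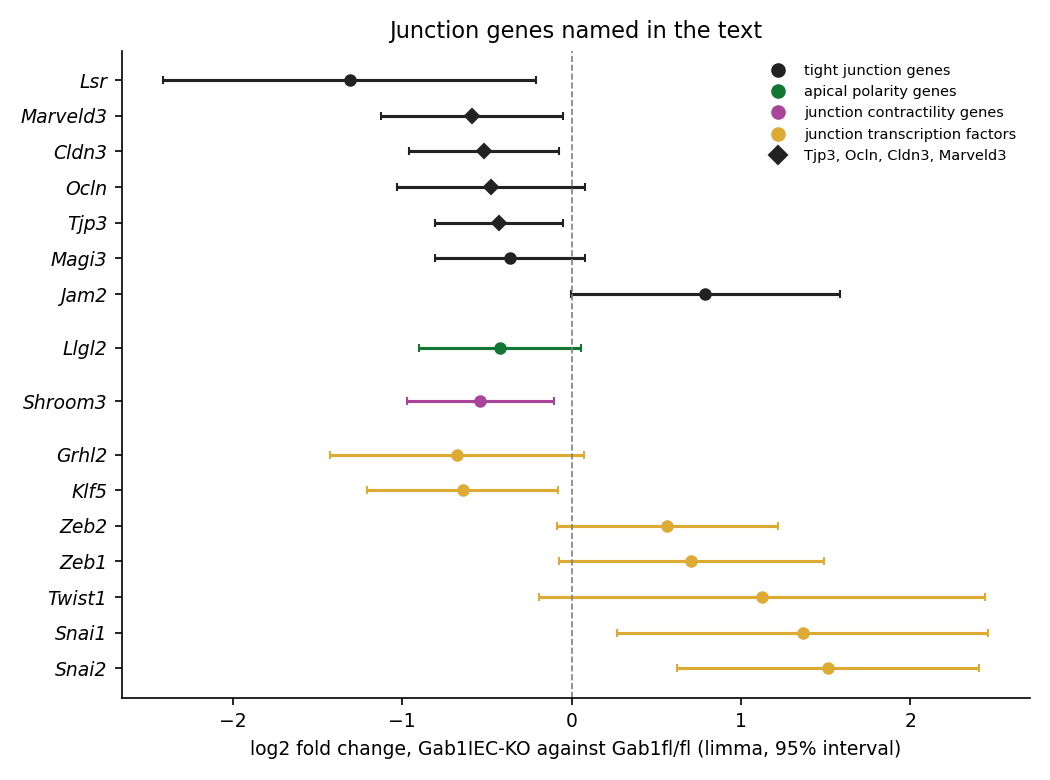
Log2 fold change of Gab1IEC-KO against Gab1fl/fl (horizontal axis, limma, bars are 95% intervals) for the tight junction, polarity, contractility and junction transcription factor genes named in the text, with Tjp3, Ocln, Cldn3 and Marveld3 as diamonds. The 4 genes lie between −0.43 and −0.59, while the factors lie on both sides of 0, from −0.68 for Grhl2 to 1.51 for Snai2.

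The lower counts of the 4 genes were set beside markers of the cells that the colon holds. None of 20 markers of the whole epithelium was listed (among them Epcam, Krt8, Vil1 and Cdh1), so no level of the 4 genes per epithelial marker could be computed. Goblet cell markers had 5 of 12 listed (Fcgbp, Clca1, Muc13, Spink4 and Atoh1), all 5 lower, with a median log2 fold change of −0.90. The other 7, among them Muc2 and Tff3, were not listed and have no values here. Crypt stem and cycling cell markers had 6 of 12 listed (among them Mki67, Cdca7, Ccnb1 and Birc5), all lower, with a median of −1.31. Lgr5, Smoc2 and Olfm4 were among the 6 that were not listed. Over all genes 12.2% were listed, and 30.0% of listed genes were lower. Colonocyte markers did not share a direction, with Aqp8 at −0.89 and Guca2a and Cyp2c55 at 2.17 and 3.85. None of these genes passed the adjusted threshold.

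The 4 genes summed to between 15251 and 18324 normalized counts in Gab1fl/fl and between 11220 and 13478 in Gab1IEC-KO, a log2 difference of −0.49. Goblet markers summed to between 164182 and 220703 in Gab1fl/fl and between 89475 and 112297 in Gab1IEC-KO, a log2 difference of −0.99. Relative to the goblet sum, each of the 4 genes was therefore higher in Gab1IEC-KO, by 0.39 to 0.55 on the log2 scale. The groups were without overlap for Tjp3 and Ocln and with overlap for Cldn3 and Marveld3. Each marker sum, here and below, holds only markers that passed the authors' threshold in the same comparison. The size of its difference, and a level relative to it, therefore depended in part on that selection. The crypt sum was lower by a log2 difference of −1.16, and its libraries overlapped, from 3263 to 8265 in Gab1fl/fl and from 1449 to 5062 in Gab1IEC-KO. No listed marker covers the epithelium as a whole, and whether the lower counts of the 4 genes reflect a smaller epithelial share was not tested.

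The summed fibroblast, neutrophil and macrophage markers were higher in every Gab1IEC-KO library than in any control. All 12 fibroblast markers were listed and higher (among them Col3a1, Dcn, Col1a2 and Col6a1, median log2 fold change 1.07), and their sum ran from 28137 to 42805 in Gab1fl/fl and from 57406 to 101238 in Gab1IEC-KO. Neutrophil markers had 10 of 15 listed, all higher (among them S100a8, S100a9, Mmp9 and Il1r2, median 2.35), with sums from 622 to 1563 and from 1874 to 5269. Monocyte and macrophage markers had 10 of 14 listed, all higher (median 0.71), with sums from 8250 to 9941 and from 12449 to 18865. Endothelial markers had 5 of 10 listed, all higher, and their sums overlapped, from 3010 to 5141 and from 4819 to 8653. Among lymphocyte markers 3 of 12 were listed, with Ms4a1 at −1.52 and Foxp3 and Il7r higher, their sum had a log2 difference of −0.24 with overlap, and no smooth muscle marker of 10 was listed. None of these genes passed the adjusted threshold. Gab1IEC-KO replicate 3, in which 3 of the 4 junction genes were lowest, had the highest sums of fibroblast, neutrophil, monocyte and endothelial markers. Among the controls the order differed between the marker sums. Gab1fl/fl replicate 1 had the highest fibroblast, neutrophil and endothelial sums of the controls (125%, 166% and 136% of the Gab1fl/fl mean). Its sum of the 4 genes was 104.6%, and Cldn3 was highest there. Gab1fl/fl replicate 2 had the lowest sum of the 4 genes (88.8%), with the lowest fibroblast and neutrophil sums and the highest monocyte and macrophage sum (111.5%). Gab1fl/fl replicate 3 had the highest sum of the 4 genes (106.7%) and the lowest monocyte and macrophage sum of the controls (92.5%). The part of stromal and immune RNA in the lower counts of the 4 genes was not tested.

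**Figure D4:**
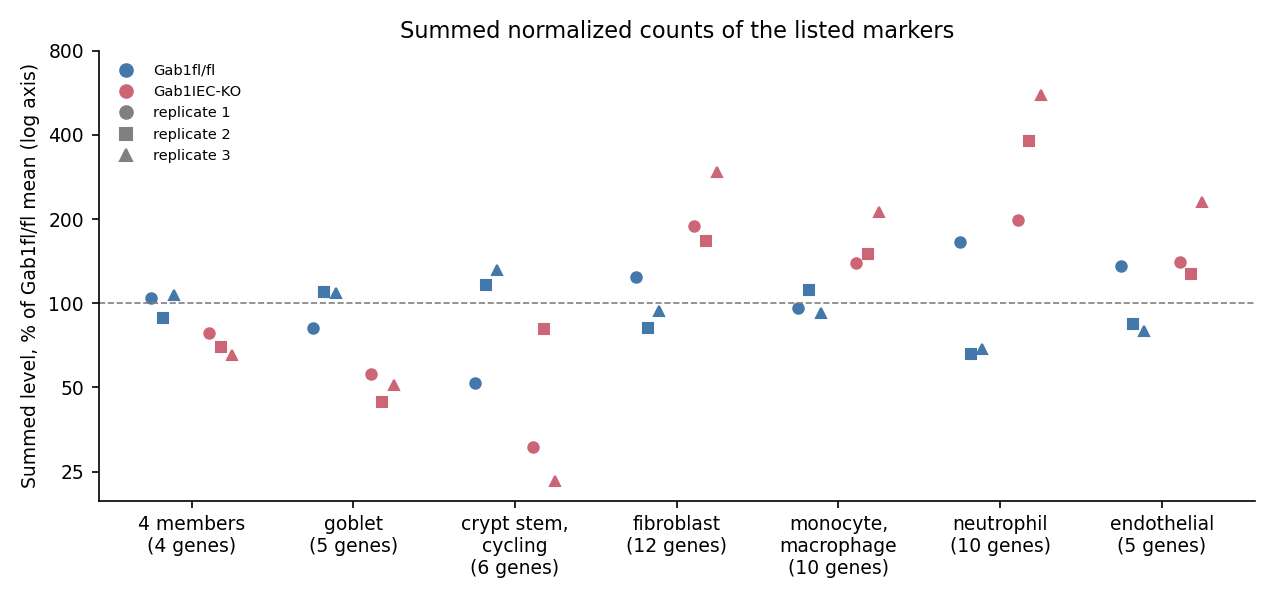
Summed normalized counts of the 4 genes and of the listed markers of 6 cell classes in each library, as percent of the Gab1fl/fl mean (vertical log axis), with Gab1fl/fl in blue, Gab1IEC-KO in red and a symbol for each replicate. The 4 genes stand at 65.3% to 78.5% in Gab1IEC-KO, goblet markers at 44.4% to 55.8%, and fibroblast and neutrophil markers lie above every Gab1fl/fl library.

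Genes with a profile like that of the 4 over the 6 libraries were found by the root mean square difference of log2 values, each gene centred on its own mean, among 1428 listed genes with a mean of at least 100. The mean profile of the 4 genes was nearest to Abhd17c, a depalmitoylase, at 0.05 on the log2 scale, then to Dnmbp, an exchange factor for Cdc42, and Anxa11, an annexin, both at 0.07. Cebpa, a transcription factor, Erbb2, a growth factor receptor, and Plekha6 followed at 0.08 each. Tjp3, Ocln, Cldn3 and Marveld3 themselves lay at 0.08, 0.12, 0.15 and 0.11 from their shared mean. Abhd17c stood at 2646, 2494 and 3156 normalized counts in Gab1fl/fl and at 2281, 1930 and 1896 in Gab1IEC-KO, a log2 fold change of −0.44.

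Tjp3, Ocln and Marveld3 each had a gene outside the set that was nearer to it than any of the other three. For Tjp3 it was Cd2ap, an actin-linked scaffold (0.04), and for Ocln it was Erbb3, a partner receptor of Erbb2 (0.07). For Marveld3 it was Mavs, an antiviral signalling adaptor (0.07). The nearest of the other three stood at 0.16 from Tjp3, 0.15 from Ocln and 0.15 from Marveld3. Each nearest gene was picked from 1428 listed genes, against only the few other genes of the set. The closest of so many can be nearer through the choice alone. A nearer gene outside the set therefore does not show that the genes of the set were unlike each other. The same limit holds for the genes nearest to the mean profile. All these distances describe 6 libraries that share the same contrast and are given with no test.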

How the data were processed

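Poly(A) RNA-Seq was made from colons of 3 Gab1fl/fl and 3 Gab1IEC-KO mice, and samples were grouped by their labels. The submitters' processing notes name HISAT2 2.0.5, featureCounts 1.5.0-p3 and the build hg18, but the table's coordinates match mouse GRCm38 (2113 of 2195 genes identical to GENCODE M21). The authors deposited a signal per gene and library, which is the read count divided by a size factor, with gene lengths, which were used for levels per kilobase. They also deposited fold changes, p-values and adjusted p-values of their own comparison, of which the p-values were read only to find that the table was filtered at 0.05 and adjusted over 16716 genes. A second deposited sheet with the authors' comparison alone was not used. Values were whole multiples of 1 step in each library, so 100% came out as whole reads within 0.01. Listed genes held 1957437 to 2787670 reads per library. That is not the library depth, which is unknown.

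The main test was limma 3.58.1 (R 4.3.3, trend) on log2(value + 1) over all 2195 listed genes, with Benjamini-Hochberg adjustment over 16716. Fold changes are on that scale. Single values were tested by exact permutation (scipy 1.17.1). Alternatives were edgeR 4.0.16 and DESeq2 1.42.0 on the recovered reads, other scalings, a mean of at least 10, a pseudocount of 0.1, a replicate block, and each replicate left out. The scripts were tested on simulated data. The variance prior of limma came from listed genes only, which were selected on this contrast. Labels do not say more of the replicates than their numbers, so p-values measure the spread between these libraries.

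The 4 genes, the gene lists and the motifs were chosen with earlier results of these data known. Named genes were the 4, up to 4 listed genes of a list with the highest means, all of a count of 5 or fewer, the 6 listed genes nearest to the mean profile of the 4 and the nearest to each, and a few genes that fall under this rule are not reported here. Gene lists were matched by symbol, and sequences were taken from RefSeq (GRCm38.p6).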

Additional observations from a re-analysis of the deposited data

How the results depend on the processing

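Under all 13 alternatives the log2 fold change of each of the 4 genes was negative and its adjusted p above 0.05 (0.254 at the lowest, for Cldn3 with TMM). Leaving out each replicate in turn gave −0.49 to −0.37 for Tjp3, −0.58 to −0.27 for Ocln, −0.64 to −0.42 for Cldn3 and −0.70 to −0.42 for Marveld3. The groups of all 4 genes were also without overlap under both scalings on the listed genes, a check added after the values were seen. That check could not have failed, because both scalings raised every Gab1fl/fl library and lowered every Gab1IEC-KO library. The negative sign under these scalings was fixed in the same way. Over all listed genes limma called 0 at the adjusted p, edgeR 0 (1204 unadjusted), and DESeq2 117 (1405 unadjusted), none of the 4 among them. Without 1 replicate limma called 0 to 2, with 2 when Gab1fl/fl replicate 2 was left out, and 537 to 1524 at the unadjusted p. With a replicate block limma called 1 gene and none of the 4 (adjusted p = 0.816 for Tjp3, 1 for Ocln, 0.576 for Cldn3 and 0.779 for Marveld3). The labels do not say whether samples with the same number share more than that number. Deviations from the group means correlated at 0.21, 0.32 and −0.15 for numbers 1, 2 and 3. Gab1IEC-KO replicates 1 and 2 correlated best with the control of their own number, and replicate 3 with Gab1fl/fl replicate 1 (0.29). These correlations cannot decide whether samples of the same number shared a factor. The cause of these differences between settings was not tested. Only genes past the authors' threshold could be seen, so the unlisted junction genes and the whole epithelium markers have no values here.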
